A study of Mus musculus with 30 samples.

Results

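Cytotoxic lymphocytes, which are mainly natural killer (NK) cells and CD8 T cells, kill target cells by emptying granules that hold the pore-forming protein perforin and serine proteases called granzymes. The 10 genes described here encode parts of that equipment. They are the cell surface receptors Klrd1 and Klrk1 and the granule proteins Gzma, Gzmb, Gzmk, Prf1 and Nkg7. The others are the protease Ctsw, the protease inhibitor Cst7 and the chemokine Ccl5. All 10 were chosen by name from the 18193 genes with a probe set on the array. In 24-week-old salivary glands, Klrk1 fell with anti-CD40L, to a level 1.76-fold lower than in control glands. Klrd1 was 3.02-fold lower and also passed the test, but it entered that test only through control arrays and did not pass without the filter on low values. In control glands, Ccl5 and Ctsw rose between week 8 and week 24. In anti-CD40L glands, Klrk1 fell between week 8 and week 16. Each of these calls was lost when certain single arrays were left out and with RNA quality in the fit. No member passed the test between treatments at week 8 or week 16.

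Salivary gland lymphocyte infiltration is a known feature of the NOD.H-2h4 strain, a mouse model of autoimmune thyroid and salivary gland disease. Activated T cells display CD40L, whose contact with CD40 licenses B cells and dendritic cells, and the antibody interrupts that contact. Killing by NK cells is governed by paired receptors. Klrd1 (CD94) pairs with NKG2 proteins and reads non-classical MHC class I, and Klrk1 (NKG2D) reads stress-induced ligands. NK cells, CD8 T cells and some other T cells share most of this equipment, so none of the 10 genes marks a single cell type.

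All mice were female NOD.H-2h4 animals that were given a single intraperitoneal injection when 4 weeks old, at 20 mg/kg. The injection was anti-CD40L antibody in 3 groups and human IgG1 isotype control antibody in the other 3. Whole salivary gland was taken at 8, 16 or 24 weeks of age, and 5 arrays were made per group, 30 in all, described as biological replicates. The labels do not say which salivary glands were pooled or whether each array was a separate mouse, so p-values measure only the spread between these samples. In whole tissue fewer cells of a type and less RNA per cell cannot be told apart. Values are log2 intensities as the authors deposited them, so a difference of 1 is a doubling; levels of different probe sets are not compared.

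Several properties of the arrays differed between groups or mice. The median array value lay between 5.487 and 5.537. The level of Amy1, which encodes salivary amylase and is high in parotid gland, was above 10 in 17 arrays and below 10 in 13. The difference between the 3′ and 5′ control probes, a measure of RNA quality on which a larger value means more degradation, did not overlap at week 24, with 0.164 to 0.248 in anti-CD40L glands against 0.287 to 0.61 in control glands. Median correlation with the other arrays was 0.915 to 0.978 and lay under 0.95 in 5 arrays. Control week 8 replicate 3 (Amy1 13.564, 3′ to 5′ difference 0.651) and control week 24 replicate 1 (Amy1 13.644, 3′ to 5′ difference 0.61) stood high in several of the genes below. The part of tissue makeup or RNA quality in any result was not tested beyond the values given beside it.

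Of the 10 genes, 8 passed the filter, which required a probe set above the median of its own array on at least 5 arrays. Gzmk was above it on 1 array and Cst7 on 4, and both are described without a place in the main test. All 10 salivary gland markers on the array passed the filter, and 7 of the 10 T cell markers did. Of the NK and innate lymphoid cell markers on the array, 1 of 7 passed, which was Ncr1. Cd8a passed and Cd8b1 did not. Cd40lg, the antibody's target, was below the filter, with mean levels of 4.70 to 4.92 in the 6 groups; the antibody acts on the protein, so this level is no check of the treatment.

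Promoter sequences are shown for 4 members, to set the receptor that fell beside 3 granule genes that did not pass the test. Each runs from 250 bases before to 50 bases after the start of transcription in RefSeq's annotation of mouse build GRCm38.p6, 5′ to 3′ on the gene's own strand. Capitals mark matches, on either strand, to the core motifs TGTGGT (RUNX), GGTGTGA (T-box), AGGAAG (ETS), TTCNNNGAA (STAT) and TGANTCA (AP-1), families of transcription factors active in lymphocytes; no matches overlap. Klrk1 lies at chr6:129623815-129624114 (minus strand), Nkg7 at chr7:43436888-43437187 (plus strand), Gzma at chr13:113100932-113101231 (minus strand) and Gzmb at chr14:56262285-56262584 (minus strand).
Klrk1: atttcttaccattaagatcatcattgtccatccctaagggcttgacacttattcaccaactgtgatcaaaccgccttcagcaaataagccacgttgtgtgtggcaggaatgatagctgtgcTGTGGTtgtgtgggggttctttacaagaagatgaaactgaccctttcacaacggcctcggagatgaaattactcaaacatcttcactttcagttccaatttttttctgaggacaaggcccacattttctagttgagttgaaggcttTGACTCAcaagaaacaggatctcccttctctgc
Nkg7: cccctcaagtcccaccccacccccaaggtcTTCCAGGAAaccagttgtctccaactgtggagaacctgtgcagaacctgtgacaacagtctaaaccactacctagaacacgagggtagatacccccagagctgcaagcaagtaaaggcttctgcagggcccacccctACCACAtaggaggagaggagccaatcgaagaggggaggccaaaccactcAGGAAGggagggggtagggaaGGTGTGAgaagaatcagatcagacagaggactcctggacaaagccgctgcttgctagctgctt
Gzma: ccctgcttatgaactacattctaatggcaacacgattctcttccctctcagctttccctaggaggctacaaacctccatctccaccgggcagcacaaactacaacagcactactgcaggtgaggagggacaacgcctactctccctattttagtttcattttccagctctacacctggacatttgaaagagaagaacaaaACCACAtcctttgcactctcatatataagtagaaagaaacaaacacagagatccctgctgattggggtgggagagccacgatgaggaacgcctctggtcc
Gzmb: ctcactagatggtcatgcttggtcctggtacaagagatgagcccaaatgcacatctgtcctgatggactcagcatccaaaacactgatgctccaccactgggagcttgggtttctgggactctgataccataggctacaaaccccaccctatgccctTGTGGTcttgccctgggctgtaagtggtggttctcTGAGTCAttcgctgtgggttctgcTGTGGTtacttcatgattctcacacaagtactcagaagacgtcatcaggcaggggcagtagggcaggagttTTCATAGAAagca

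RefSeq's table held promoters for 7 of the 10 members: the 4 above and those of Gzmk, Prf1 and Cst7. The RUNX core was found in 6 of the 7, against 16.8% of 32851 mouse promoters of the same length. The Klrk1 match starts at −129 relative to the start of transcription and the Gzma match at −50, and Gzmb has 2, at −93 and −34. The other cores were found in fewer: ETS in 3 of 7 (35.4% of all promoters), AP-1 in 3 (7.81%), T-box in 2 (3.98%), STAT in 2 (8.3%) and an NF-kB motif in 1, that of Gzmk (1.47%). Such a match describes letters only and is not a binding site.

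**Figure D1:**
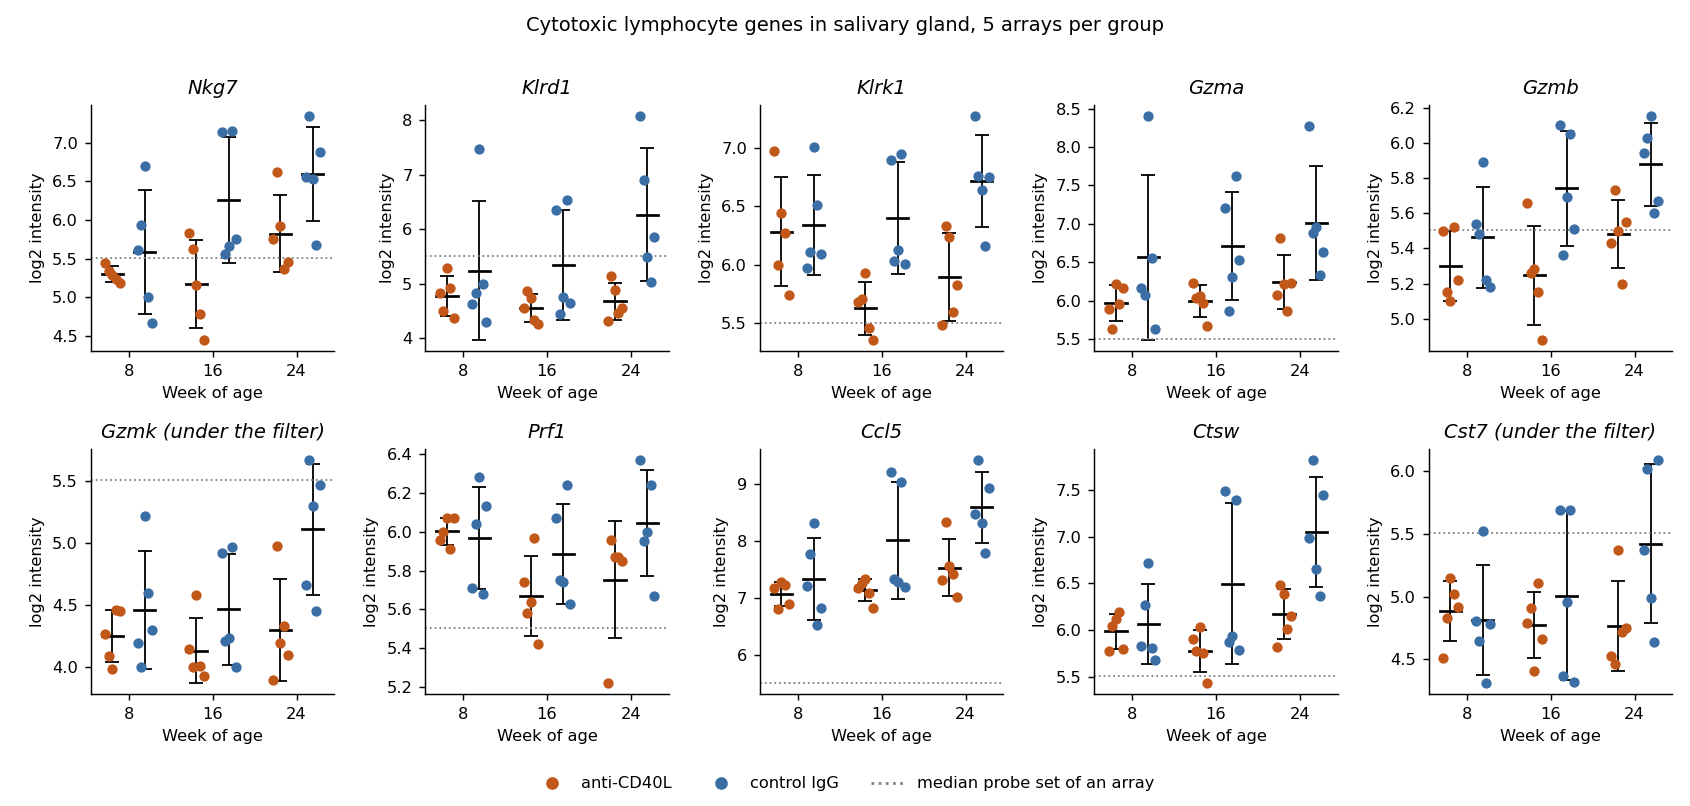
Log2 intensity of each of the 10 genes on every array (points; anti-CD40L orange, control IgG blue) by week of age, with the mean and SD of 5 arrays in black and the median probe set of an array dotted. The control arrays at week 24 have the highest mean in all 10 panels, and week 16 controls split into 2 high arrays and 3 low ones for Nkg7, Klrd1, Klrk1, Ccl5 and Ctsw.

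The first receptor, Klrd1, had log2 levels of 4.32, 5.14, 4.89, 4.46 and 4.56 in anti-CD40L glands at week 24, against 8.07, 6.9, 5.48, 5.03 and 5.86 in control glands. Of the 5 anti-CD40L arrays, 4 lay below every control array, and the control arrays spread from 5.03 to 8.07 with replicate 1 the highest. The log2 change was −1.60 ± 0.51 (SE), adjusted p = 0.046 in limma, the linear model fitted across all genes. The means were 4.67 ± 0.33 in anti-CD40L glands and 6.27 ± 1.22 in control glands (SD, n = 5 each). Without control replicate 1 the change was −1.15 (adjusted p = 0.213), and the call held in 2 of the 10 fits that each left out 1 of these arrays. Klrd1 was above the array median on 0 of 15 anti-CD40L arrays and 6 of 15 control arrays, so it entered the test only through the group in which it was high. With no filter on low values the change was −1.60 with an adjusted p of 0.0553, and the call is not relied on here.

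Klrk1 at week 24 read 5.49, 6.33, 6.24, 5.6 and 5.83 in anti-CD40L glands, against 7.27, 6.76, 6.64, 6.16 and 6.75 in control glands. Here 3 anti-CD40L arrays lay below every control, while replicates 2 and 3 reached into the control range. The means were 5.90 ± 0.37 in anti-CD40L glands and 6.71 ± 0.40 in control glands (SD, n = 5 each), a log2 change of −0.82 ± 0.24 (adjusted p = 0.0355, limma). Leaving out 1 array at a time kept the call in 4 of 10 fits, with the change between −0.95 and −0.68 and the adjusted p at most 0.147. Without control replicate 1 it was −0.68 (adjusted p = 0.147).

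Of the 8 tested members, 2 passed as lower at week 24, against 3.49% of all genes tested. Since Klrd1 is one of them, and Gzmb too needed control arrays to pass the filter (above the median on 4 of 15 anti-CD40L and 11 of 15 control arrays), this count is a description only. With no filter, 2 of all 10 members passed, Klrk1 (adjusted p = 0.0426) and Gzmk, against 2.31% of 18193 genes. The changes of all 10 were then below 0, with a median of −0.79; the 8 tested had the same median, beside 0.03 over all genes, and stayed below 0 after quantile normalization or centring each array on its median. At an unadjusted p under 0.05, 7 of 8 members and 3853 of 12998 genes differed. Over the 21 alternative fits that kept both receptors (a stricter filter on low values dropped them), Klrd1 passed in 7 and Klrk1 in 12, and neither changed sign. No member had all 5 anti-CD40L arrays below all 5 controls at week 24, an arrangement found for 1.76% of all genes.

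Both week 24 calls were lost when RNA quality was in the fit. The 3′ to 5′ values of the treatments did not overlap at this age, so this fit separates treatment from RNA quality poorly. With the 3′ to 5′ difference as a covariate, Klrd1 read −0.93 (adjusted p = 0.587) and Klrk1 −0.49 (adjusted p = 0.523), and 23 genes passed over the whole array against 1229 without it. With Amy1 as a covariate, Klrd1 read −1.64 (adjusted p = 0.0192) and Klrk1 −0.84 (adjusted p = 0.0163). Within arrays of like Amy1 level, the Klrd1 difference was −1.69 in both strata. These held 3 anti-CD40L and 2 control arrays above 10, and 2 and 3 arrays below 10. Above 10 the difference rested on 1 control array, replicate 1 at 8.07. The other, replicate 4 at 5.03, lay within the anti-CD40L values of 5.14, 4.89 and 4.56. Klrk1 differed by −0.58 above and −1.17 below.

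The adaptors through which these receptors signal were measured on the same arrays. Hcst (DAP10), the partner of Klrk1, fell by 0.66 on the log2 scale at week 24 (SE 0.18, adjusted p = 0.0241), and all 5 anti-CD40L arrays were below all 5 controls. Tyrobp (DAP12), used by activating receptors of NK and myeloid cells, changed by −0.85 ± 0.25 (adjusted p = 0.0326). Both were among 6 tested adaptors and kinases, of which these 2 fell and none rose (median −0.35). Of 5 other NK and CD8 T cell receptors tested, 1 fell: Cd96, which binds poliovirus-receptor family proteins, at −0.78 ± 0.14 (adjusted p = 0.00197). Klra7, a Ly49 receptor, read −1.0 ± 0.48 (adjusted p = 0.163). Of 10 listed ligands of Klrk1 and Klrd1, 2 were on the array and neither passed the filter.

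**Figure D2:**
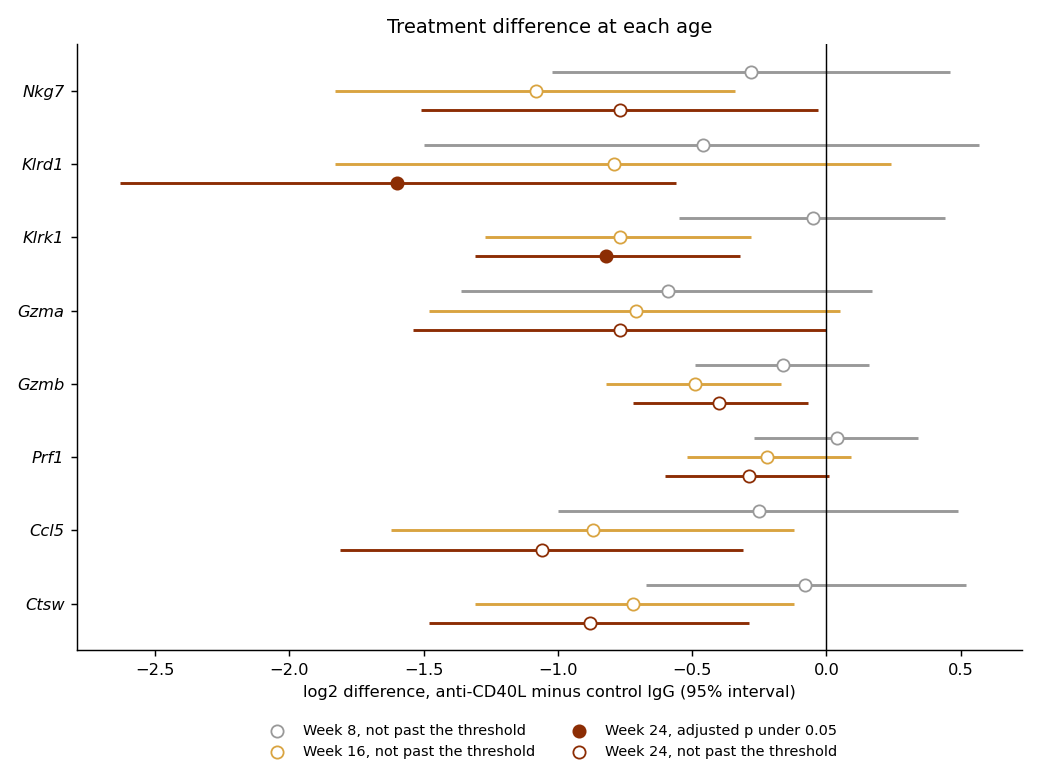
Log2 difference, anti-CD40L minus control IgG, with its 95% interval for the 8 tested genes at weeks 8, 16 and 24; filled points passed an adjusted p of 0.05. Only Klrd1 and Klrk1 at week 24 are filled, and Prf1 at week 8 (0.04) is the one value above 0.

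Among the granule proteins none passed the test at week 24. Nkg7, a granule membrane protein required for killing in mouse lymphocytes, read 5.75, 6.62, 5.92, 5.36 and 5.46 in anti-CD40L glands, against 6.56, 7.34, 6.53, 5.68 and 6.88 in control glands. The ranges overlapped widely and the log2 change was −0.77 ± 0.36 (adjusted p = 0.151, limma). Gzma, a trypsin-like granzyme, read 6.07, 6.82, 6.22, 5.87 and 6.23 in anti-CD40L glands, against 8.27, 6.88, 6.96, 6.33 and 6.63 in control glands. Of its anti-CD40L arrays 4 were below every control and replicate 2 was not; the log2 change was −0.77 ± 0.37 (adjusted p = 0.166).

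Gzmb, the granzyme that activates caspases in target cells, read 5.43, 5.73, 5.5, 5.2 and 5.55 in anti-CD40L glands at week 24, against 5.94, 6.03, 6.15, 5.6 and 5.67 in control glands. It moved within a narrow band, with a log2 change of −0.40 ± 0.16 (adjusted p = 0.0995). Gzmk, a granzyme of effector memory T cells, read 3.9, 4.98, 4.2, 4.33 and 4.1 in anti-CD40L glands, against 4.66, 5.67, 5.3, 4.45 and 5.47 in control glands; replicates 2, 3 and 5 of the control were the high ones. Fitted with no filter on low values, Gzmk changed by −0.81 ± 0.24 (adjusted p = 0.0445 over 18193 genes), but only 1 array placed it above the array median, so this value is not counted among the calls.

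Prf1, perforin itself, had the change nearest to 0 among the tested members at week 24. It read 5.22, 5.96, 5.87, 5.87 and 5.85 in anti-CD40L glands at week 24, against 6.37, 5.95, 6.0, 6.24 and 5.67 in control glands. The groups overlapped, with 1 anti-CD40L array below every control and 3 controls above every anti-CD40L array, and the log2 change was −0.29 ± 0.15 (adjusted p = 0.186). Its other probe set went the other way at week 24, averaging 5.7 ± 0.17 in anti-CD40L glands and 5.48 ± 0.36 in control glands (SD, n = 5 each). The 2 probe sets of perforin therefore give no common direction.

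Ctsw (cathepsin W), a protease of NK and CD8 T cells held in the endoplasmic reticulum, read 5.82, 6.48, 6.39, 6.01 and 6.15 in anti-CD40L glands at week 24, against 6.98, 7.82, 6.65, 6.36 and 7.44 in control glands. Of the anti-CD40L arrays 3 were below every control, and the log2 change of −0.88 ± 0.29 just missed the threshold (adjusted p = 0.0525). Cst7 (cystatin F), an inhibitor of cathepsins that process granzymes, read 4.53, 4.46, 5.37, 4.72 and 4.75 in anti-CD40L glands, against 5.37, 6.02, 4.99, 4.64 and 6.09 in control glands. Its ranges overlapped, and with no filter on low values the change was −0.65 ± 0.27 (adjusted p = 0.141).

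Ccl5, a chemokine that activated T and NK cells release and that draws in more of them, read 7.31, 8.34, 7.56, 7.42 and 7.01 in anti-CD40L glands at week 24, against 8.48, 9.42, 8.32, 7.79 and 8.93 in control glands. All anti-CD40L arrays but replicate 2 were below every control. The log2 change was −1.06 ± 0.36 (adjusted p = 0.0608). Ccl5 and Ctsw did pass in 4 of 22 alternative fits each, and neither changed sign in any of them. Of 5 tested Ccl5 receptors and related chemokine genes, 1 fell: Cxcr3, a receptor of activated T cells for interferon-induced chemokines, at −0.89 ± 0.26 (adjusted p = 0.0332). Ccr1, which binds Ccl5, read −0.86 ± 0.28 (adjusted p = 0.0507), and Cxcr6 −1.13 ± 0.44 (adjusted p = 0.09).

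At week 16 no member passed the test, against 0.577% of genes that were lower, although all 8 changes were below 0 (median −0.75, beside 0.02 over all genes). At an unadjusted p under 0.05, 5 members and 1910 of 12998 genes differed. Klrk1 read 5.68, 5.71, 5.93, 5.46 and 5.36 in anti-CD40L glands, against 6.9, 6.03, 6.13, 6.95 and 6.01 in control glands. This was the 1 member with every anti-CD40L array below every control, an arrangement found for 3.02% of all genes, and its log2 change was −0.77 ± 0.24 (adjusted p = 0.0912, limma).

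Control replicates 1 and 4 carried most of the week 16 difference in Ccl5, Ctsw, Klrd1 and Gzma, but not in Klrk1. Ccl5 read 7.18, 7.26, 7.33, 7.09 and 6.83 in anti-CD40L glands, against 9.21, 7.33, 7.28, 9.03 and 7.19 in control glands, with a change of −0.87 ± 0.36 (adjusted p = 0.248). Ctsw read 5.9, 5.78, 6.03, 5.75 and 5.43 in anti-CD40L glands, against 7.49, 5.87, 5.94, 7.39 and 5.79 in control glands, a change of −0.72 ± 0.29 (adjusted p = 0.225). In both genes the other 3 controls lay within the anti-CD40L range. Without these 2 controls the changes were −0.13 for Ccl5, −0.09 for Ctsw, −0.06 for Klrd1, −0.24 for Gzma, −0.49 for Nkg7 and −0.43 for Klrk1. Over all arrays Klrd1 changed by −0.79, Gzma by −0.71, Nkg7 by −1.08 and Klrk1 by −0.77.

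The same 2 control arrays were high for granule genes. Nkg7 read 5.83, 5.62, 5.16, 4.79 and 4.45 in anti-CD40L glands at week 16, against 7.14, 5.56, 5.67, 7.15 and 5.75 in control glands. Gzma read 6.23, 6.04, 6.06, 5.97 and 5.67 in anti-CD40L glands, against 7.21, 5.87, 6.31, 7.62 and 6.53 in control glands. Replicates 1 and 4 were the highest controls in both, and the lowest Gzma control lay inside the anti-CD40L range. Gzmb, at 5.66, 5.26, 5.28, 5.15 and 4.88 in anti-CD40L glands against 6.1, 5.36, 5.69, 6.05 and 5.51 in control glands, had 4 anti-CD40L arrays below every control and a change of −0.49 ± 0.16 (adjusted p = 0.101).

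Those 2 control arrays also had high Amy1, at 12.375 and 13.454, against 7.271 to 8.95 in the other 3 controls. Among arrays with Amy1 above 10 (2 per group), Ccl5 differed by −1.95 and Nkg7 by −1.94. Among those below 10 (3 per group), the differences were −0.15 and −0.51. At week 24 the order was the other way, with −0.50 for Ccl5 and −0.12 for Nkg7 above 10 (3 anti-CD40L and 2 control arrays), and −1.53 and −1.36 below 10 (2 and 3 arrays). T cell markers were highest in the same array, control replicate 4. The week 16 means of Nkg7 were 5.17 ± 0.57 in anti-CD40L glands and 6.25 ± 0.82 in control glands (SD, n = 5 each), with a change of −1.08 ± 0.36 (adjusted p = 0.12).

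At week 8, 4 weeks after the injection, the members did not separate. No member passed (0.0692% of genes were lower), none at an unadjusted p under 0.05 (2019 of 12998 genes), and none had all anti-CD40L arrays below all controls (0.792% of genes). The 8 changes ran from −0.59 ± 0.37 in Gzma (adjusted p = 0.443) to 0.04 ± 0.15 in Prf1 (adjusted p = 0.931). For Klrd1 the levels were 4.83, 4.49, 5.29, 4.91 and 4.37 in anti-CD40L glands, against 4.63, 4.82, 7.47, 4.99 and 4.29 in control glands. One control array stood far above the rest. The same array, replicate 3, was the highest control for Gzma at 8.40, while the other control arrays spanned 5.63 to 6.55 and anti-CD40L glands 5.63 to 6.22. The 95% interval for Klrd1 at this age ran from −1.50 to 0.57.

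The order of group means was much alike across members. Control week 24 had the highest mean in 10 of 10 genes, and anti-CD40L week 16 the lowest in 7. Steps between neighbours in that order were small: of 50 pairs of neighbouring groups, 49 differed by less than the larger of their SDs. The exception was Gzmk, whose control week 24 mean of 5.11 ± 0.53 stood above the next group, control week 16, at 4.47 ± 0.45 (SD, n = 5 each).

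**Figure D3:**
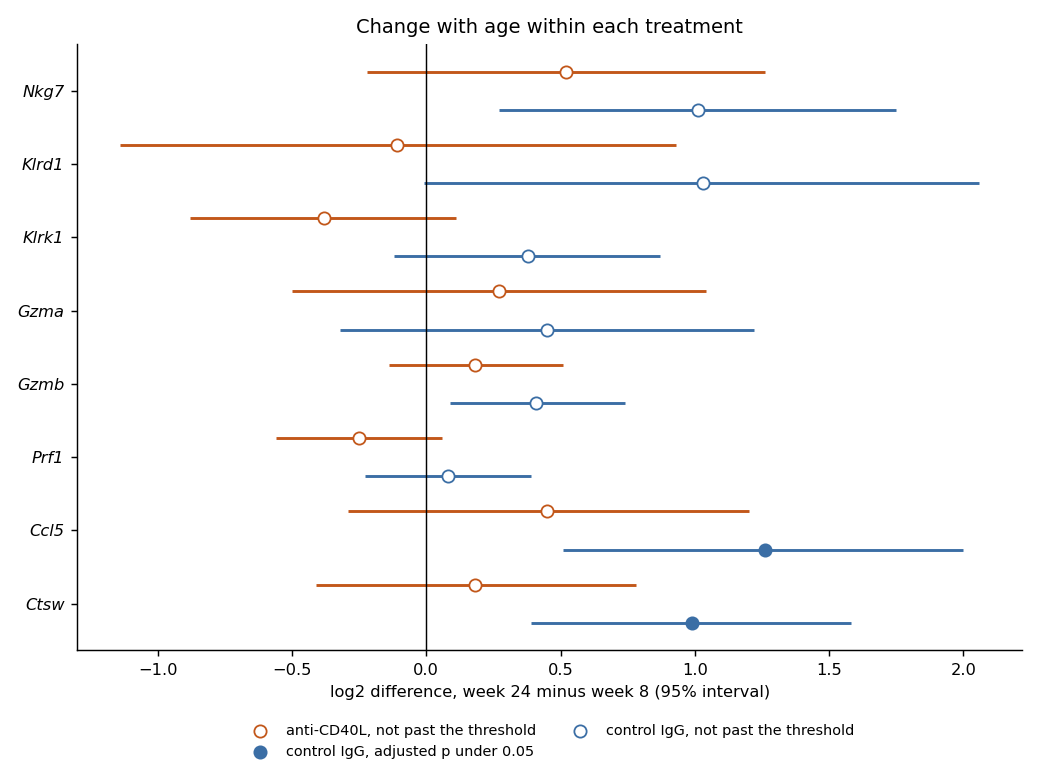
Log2 difference, week 24 minus week 8, with its 95% interval for the 8 tested genes in anti-CD40L glands (orange, upper) and control glands (blue, lower). Ccl5 and Ctsw in control glands are the filled points, past an adjusted p of 0.05.

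Within control glands 2 of 8 members rose between week 8 and week 24, against 8.49% of all genes. Ccl5 read 8.48, 9.42, 8.32, 7.79 and 8.93 at week 24, against 7.21, 7.77, 8.32, 6.53 and 6.82 at week 8, a log2 change of 1.26 ± 0.36 (adjusted p = 0.0242, limma). Ctsw read 6.98, 7.82, 6.65, 6.36 and 7.44 at week 24, against 5.83, 6.27, 6.72, 5.81 and 5.68 at week 8, a change of 0.99 ± 0.29 (adjusted p = 0.0267). In both genes 1 array of week 8, replicate 3, reached into the week 24 range. Each call was lost when any 1 of 4 arrays was left out (control week 8 replicates 4 and 5, control week 24 replicates 2 and 5), with adjusted p up to 0.0939 and 0.106. Both were also lost with only the arrays compared (adjusted p = 0.127 each), with array weights (0.109 and 0.106) and with the 3′ to 5′ covariate (0.0697 and 0.0549). In that last fit the Ccl5 change was 1.24 ± 0.41.

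The other 6 members were also above 0 over this span (median of the 8 changes 0.72, beside 0.05 over all genes). Nkg7 came nearest at 1.01 ± 0.36 (adjusted p = 0.0618), Klrd1 read 1.03 ± 0.51 (adjusted p = 0.172) and Prf1 0.08 ± 0.15 (adjusted p = 0.751). Leaving out control week 8 replicate 3, the high array named above, gave 5 calls: Ccl5, Ctsw, Nkg7, Klrd1 at 1.59 (adjusted p = 0.0213) and Gzmb at 0.52 (adjusted p = 0.0341). The calls over all genes also moved, between 721 and 3228 when 1 array was left out, against 1624 in the main fit. These 5 calls are therefore a description only, and Klrd1 entered the test only through control arrays. Between week 8 and week 16 no control member passed, against 28.4% of genes that rose; the largest change was 0.68 ± 0.36 in Ccl5 (adjusted p = 0.122). This comparison and the week 24 treatment comparison share the 5 control arrays of week 24.

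Within anti-CD40L glands no member passed between week 8 and week 24, while of 12998 genes 2148 rose and 926 (7.12%) fell. Ccl5 read 0.45 ± 0.36 (adjusted p = 0.36), Ctsw 0.18 ± 0.29 (adjusted p = 0.655) and Klrd1 −0.11 ± 0.51 (adjusted p = 0.89). Between week 8 and week 16, Klrk1 fell, against 12.5% of genes that were lower. Its levels were 5.68, 5.71, 5.93, 5.46 and 5.36 at week 16, against 6.97, 6.0, 6.44, 6.27 and 5.74 at week 8, a change of −0.65 ± 0.24 (adjusted p = 0.0352, limma). The ages overlapped by 1 array each. Without week 8 replicate 1, the highest array, the change was −0.48 (adjusted p = 0.135), and the call held in 5 of 10 fits that left out 1 array.

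The test of the difference itself, whether the treatment effect changed with age, passed for no member. For week 24 against week 8 the largest was −1.14 ± 0.72 in Klrd1 (adjusted p = 0.962), and 0.00769% of genes passed. For week 16 against week 8, Nkg7 read −0.80 ± 0.51 (adjusted p = 0.516) and 0.146% of genes passed. All 8 members were below 0 in both (medians −0.63 and −0.48). At an unadjusted p under 0.05, 1 member passed in each, and it was Klrk1. The treatment differences at week 24 are therefore not shown to differ from those at week 8.

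T cell transcripts also fell at week 24. Of 7 tested T cell markers 6 fell (median −1.70): Cd3d, a chain of the T cell receptor complex, changed by −2.31 ± 0.46 (adjusted p = 0.00576) and Cd3g by −2.15 ± 0.54 (adjusted p = 0.0165). On anti-CD40L arrays Cd3g never exceeded 5.35, below the lowest array median of 5.487, so it entered the test only through control arrays. The Cd3g call is therefore a description only, and so are the count and the mean that include it. The mean of the 7 markers was 5.05 to 5.82 in anti-CD40L glands against 5.94 to 7.80 in control glands. Cd4 changed by −0.94 ± 0.29 (adjusted p = 0.0413) and Cd8a by −0.10 ± 0.19 (adjusted p = 0.748). The other CD8 gene, Cd8b1, was under the filter and not tested. It averaged 4.28 ± 0.35 in anti-CD40L glands and 5.13 ± 0.47 in control glands (SD, n = 5 each), so the 2 CD8 genes differed. B cell markers moved too, with 6 of 7 lower, among them Ms4a1 (CD20) at −3.70 ± 0.59 (adjusted p = 0.000887). Ncr1, the NK cell receptor NKp46, read −0.12 ± 0.27 (adjusted p = 0.781). At week 16 Ncr1 read −0.76 ± 0.27 (adjusted p = 0.142, limma), with all 5 anti-CD40L arrays below all 5 controls (3.02% of all genes). The 7 NK and innate lymphoid cell markers on the array, of which only Ncr1 passed the filter, were also averaged per array. At week 24 that mean had a median of 4.44 in anti-CD40L glands (4.38 to 4.56) and 4.68 in control glands (4.48 to 4.82).

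**Figure D4:**
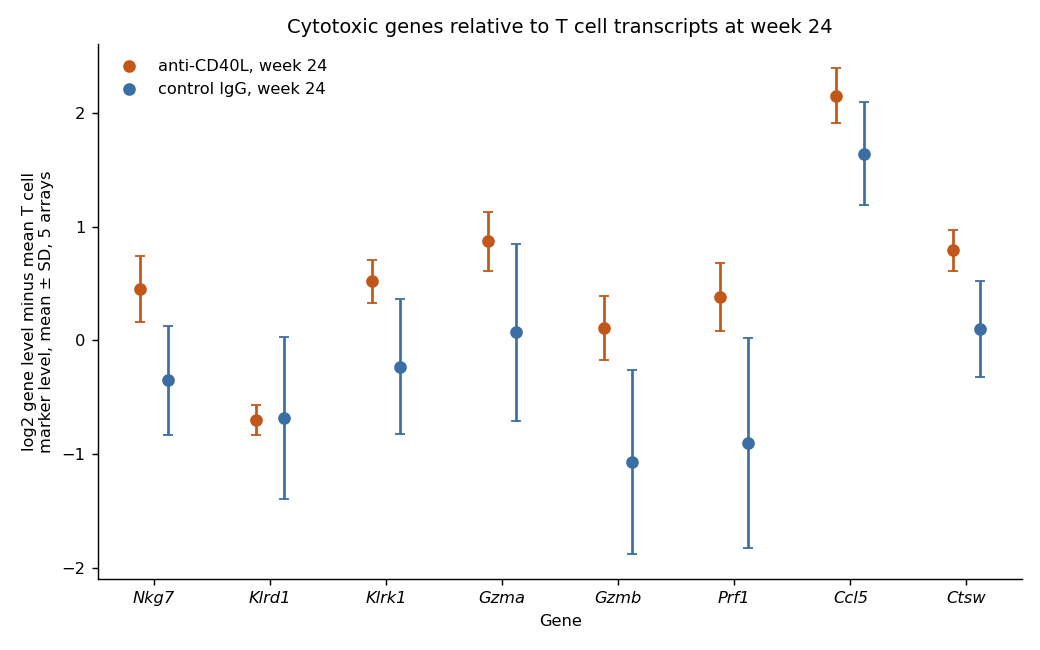
Each tested gene's log2 level minus the mean level of 7 T cell markers on the same array at week 24, as mean and SD of 5 arrays for anti-CD40L (orange) and control IgG (blue). The anti-CD40L mean is higher for 7 genes and level for Klrd1 (−0.70 against −0.68).

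When each member was set against the T cell mean of its own array, the week 24 difference was above 0 for 7 of 8. The T cell mean itself averaged 5.37 in anti-CD40L glands and 6.94 in control glands at week 24, and it includes Cd3g, which passed the filter only through control arrays. A member that fell less, or hardly moved, therefore comes out above 0, and such a value is no rise of the member. Ctsw minus the T cell mean was 0.79 ± 0.18 in anti-CD40L glands and 0.10 ± 0.42 in control glands (SD, n = 5 each), a difference of 0.69 (p = 0.00794, exact two-sided permutation test, adjusted p = 0.152). For Gzmb the difference was 1.17 and for Prf1 1.28 (exact permutation p = 0.0317 each, adjusted p = 0.152). For Klrd1 it was −0.03 (exact permutation p = 0.968). None of 24 such tests, 8 genes at 3 ages, passed after adjustment and 7 did before it, where 0.00794 is the smallest p that 5 against 5 arrays allow. Leaving out control week 24 replicate 3 gave 5 tests past the threshold.

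**Figure D5:**
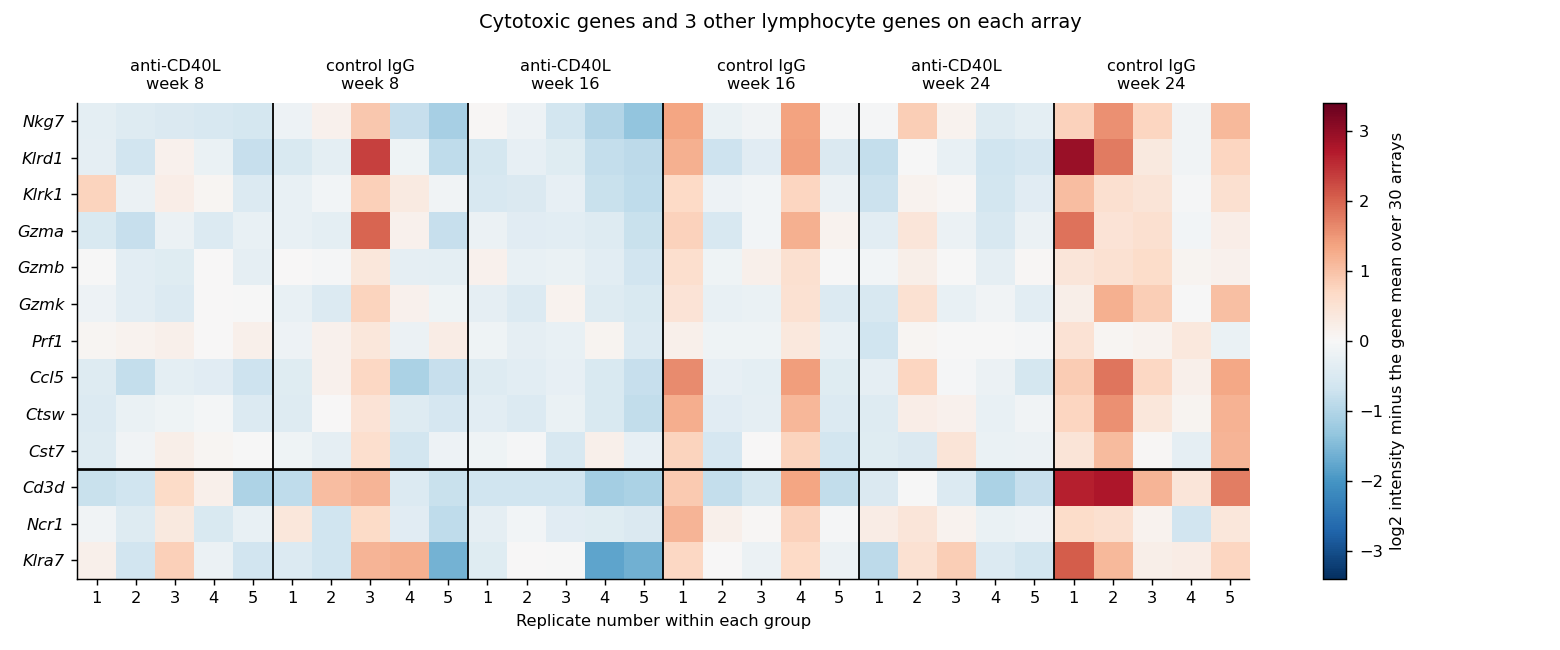
Log2 intensity minus each gene's mean over 30 arrays for the 10 cytotoxic genes and, below the line, the T cell gene Cd3d and the NK cell genes Ncr1 and Klra7; columns are arrays by group and replicate. Control week 16 replicates 1 and 4, control week 8 replicate 3 and control week 24 replicates 1, 2 and 5 are the reddest columns. Control week 24 replicate 3 also lies above the mean of each of the 10 genes.

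The array-by-array plot shows that members varied together. Over 45 pairs of members the correlation across 30 arrays was 0.34 to 0.95 (median 0.71), and these arrays share tissue makeup and age. Ccl5 and Ctsw were closest (r = 0.95), followed by Ccl5 and Nkg7 (r = 0.94). Both Ccl5 (r = 0.94) and Ctsw (r = 0.95) tracked Cd3g, while with Cd3e their r was 0.49 and 0.57. Klrd1 correlated most with Gzma (r = 0.92), which rested partly on 2 arrays: over the 28 arrays left without control week 8 replicate 3 and control week 24 replicate 1, r was 0.84 with Gzma, 0.94 with Ctsw, 0.90 with Ccl5 and 0.86 with Nkg7.

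In control week 24, different arrays were highest for different members. Replicate 1 was highest for Klrd1 (8.07), Gzma (8.27) and Klrk1 (7.27), while replicate 2 was highest for Ccl5 (9.42), Ctsw (7.82) and Nkg7 (7.34). Klrd1 had r = 0.88 with each of the T cell genes Cd3d and Cd3g but 0.49 with the T cell gene Cd3e. It had 0.80 with the NK cell receptor gene Klra7 and 0.71 with Ncr1. Ccl5 had r = 0.60 with Klra7 and 0.74 with Ncr1, and Klrk1 had 0.82 and 0.61. Cd8a was correlated with no member beyond −0.15 to 0.09. Prf1 had the weakest ties, with r = 0.34 to Nkg7. The difference between these correlations was not tested.

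Genes whose pattern was most like the mean of the members over the 30 arrays were Cxcl9 (r = 0.964), an interferon-gamma-induced chemokine that binds Cxcr3; the immunoproteasome subunits Psmb9 (0.958) and Psmb8 (0.947); the chemokine receptor Cxcr6 (0.958); the leukocyte actin regulator Coro1a (0.947); and Cd48 (0.938), a lymphocyte surface ligand. AI662270 (0.938) and Calhm6 (0.934) completed the 8. These are descriptions over shared tissue.

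Other parts of the killing machinery were also measured. Of 10 tested genes of granule formation and release, 3 fell at week 24 (median −0.02): Srgn (serglycin), the proteoglycan that packs granule contents in many blood cell types, at −1.22 ± 0.26 (adjusted p = 0.00833); Vamp7, a vesicle fusion protein of most cells, at −0.50 ± 0.14 (adjusted p = 0.0286); and Unc13d, which primes granules for fusion, at −0.36 ± 0.11 (adjusted p = 0.0471). Ap3b1 read 0.31 ± 0.19 (adjusted p = 0.286) and Lyst 0.12 ± 0.25 (adjusted p = 0.772). None of 7 other granzymes passed the filter. None of 5 granzyme and cathepsin inhibitors passed the test, with Serpinb9b at −0.37 ± 0.18 (adjusted p = 0.167) and Cst3 at −0.27 ± 0.13 (adjusted p = 0.177). Of 2 tested death ligands and effector cytokines neither passed (Tnfsf10 −0.46 ± 0.20, adjusted p = 0.13; Tnf −0.27 ± 0.12, adjusted p = 0.127).

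Of the 6 tested genes of the IL-15, IL-12 and IL-18 axis, which sustains and activates NK cells, 2 fell at week 24. Il18 changed by −0.48 ± 0.14 (adjusted p = 0.0357) and its receptor chain Il18rap by −0.50 ± 0.14 (adjusted p = 0.0241). Among 7 tested transcription factors of the cytotoxic lineages, 1 rose and none fell at week 24: Nfil3, needed for NK cell development in mice and also a circadian gene of many tissues, by 1.26 ± 0.28 (adjusted p = 0.00989). Id2, which restrains E proteins in NK cells, fell by 0.30 (SE 0.07, adjusted p = 0.0344) at week 16. Of 4 tested tissue-residency genes none passed at week 24; Itga1 (CD49a) rose at week 16 by 0.46 ± 0.12 (adjusted p = 0.0374).

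Markers of other cells differed as well. At week 24, 4 of 6 plasma cell markers fell, and none of 9 macrophage and dendritic cell markers, 4 neutrophil markers, 3 mast cell markers or 10 salivary gland markers passed. The plasma cell gene Jchain fell at all 3 ages, with log2 changes of −2.56 (adjusted p = 0.00018), −3.34 (adjusted p = 7.34e-07) and −1.80 (adjusted p = 0.00335) at weeks 8, 16 and 24. At week 16 the neutrophil genes S100a8 (1.37 ± 0.34, adjusted p = 0.0357) and S100a9 (1.11 ± 0.29, adjusted p = 0.0431) rose. Cd40, the receptor that the antibody cuts off from its ligand, fell by 0.59 (SE 0.16, adjusted p = 0.0229) at week 24.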

How the data were processed

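Total RNA of whole salivary gland was measured on 30 Affymetrix mouse whole-genome expression arrays, per the labels' protocols. The authors deposited 1 table of values between 2.757 and 14.457, a span that fits log2 intensities. Its normalisation and probe summary are not given in the sources used here. The tool limma, without a version, appears in the submitters' processing notes. The values were used unchanged. The number of arrays limits the precision, and the highest correlation between 2 arrays was 0.9919.

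The table held 45101 probe sets, of which 34945 named exactly 1 gene, 932 several and 9224 none here (64 array controls were set aside). A gene was represented by its probe set with the highest mean, and was tested when that lay above its array's median on at least 5 arrays, which left 12998 of 18193 genes. limma 3.58.1 in R 4.3.3 fitted 1 mean per group over all 30 arrays, with Benjamini-Hochberg adjustment over the 12998 genes and a threshold of 0.05. The fit was tested on simulated data. Levels relative to 7 T cell markers were compared with exact permutation tests (scipy 1.17.1).

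The text names all 10 members, up to 4 genes per list and age that passed the test or else the 2 with the largest change, and the 8 genes most like the members' mean; other values are given beside them. The members, gene lists and motifs were chosen with earlier results of these data known, so a list's direction is no independent evidence.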

Additional observations from a re-analysis of the deposited data

Results flagged for a closer look

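Dixon's test for a sample far from the rest of its group (critical value 0.71 for 5 arrays) was applied to the 60 groups formed by the 10 genes, and 2 groups held such an array; chance gives about 1 in 20. In Klrd1, control week 8 replicate 3 read 7.47, above 4.29 to 4.99 in the other 4 arrays, a gap of 0.78 of the group's range. In Prf1, anti-CD40L week 24 replicate 1 read 5.22, below 5.85 to 5.96 in the other 4, a gap of 0.858. No explanation of either was tested.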

How the results depend on the processing

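No member or list gene that passed reversed its direction under any alternative. Over single genes the results stayed on the same side of the threshold in 3934 cases, in 144 of which a change that passed in neither fit took the other sign, were no longer past it in 202 and newly past it in 55. Counts of members called were less steady. For anti-CD40L against control at week 24 (2 calls), no filter gave 1 of the 8 tested members (Klrk1), beside Gzmk, which is not among them. A stricter filter (70th percentile), which dropped both receptors, gave 1 (Ctsw, adjusted p = 0.0451 in limma). Array weights gave 1, quantile normalization 3 and Amy1 as a covariate 4. The count was 0 with only the arrays compared and with the 3′ to 5′ difference as a covariate. It was also 0 without both control week 8 replicate 3 and control week 24 replicate 1 (an alternative chosen after seeing the data). Leaving out 1 array gave 0 to 4. At week 16 (0 calls), using only the arrays compared gave 1, array weights 3 and leaving out the 5 arrays of median correlation under 0.95 (chosen after seeing the data) 1. For control week 24 against week 8 (2 calls), using only the arrays compared, array weights and the 3′ to 5′ covariate gave 0 each, leaving out the same 2 control arrays gave 5, and leaving out 1 array 0 to 5. For control week 16 against week 8 (0 calls), leaving out 1 array gave 0 to 2 and leaving out the 5 arrays 1. For anti-CD40L week 16 against week 8 (1 call, Klrk1), the stricter filter, either covariate and leaving out the 5 arrays gave 0, using only the arrays compared 2, and leaving out 1 array 0 to 1. The tests relative to T cells (0 calls) gave 0 to 5 when 1 array was left out. The cause was not tested. The fits on the groups compared also held fewer arrays.

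Over all genes, the week 24 count of 1229 (775 higher, 454 lower) was 129 with only the arrays compared, 1888 with Amy1 and 23 with the 3′ to 5′ covariate (5 higher, 18 lower), and 290 without the 2 control arrays; quantile normalization gave 633 higher and 676 lower. At week 16 the count of 245 was 965 with only the arrays compared, 1557 with array weights, 450 with the 3′ to 5′ covariate, 670 without the 5 arrays and 35 without control replicates 1 and 4, and quantile normalization gave 153 higher and 125 lower. At week 8 the count of 9 was 43 with array weights, 36 without the 5 arrays, 20 with Amy1, 3 with the 3′ to 5′ covariate, 4 with a replicate block or the median over probe sets and 0 with only the arrays compared. Leaving out 1 array moved the week 24 count between 237 and 2140 and the week 16 count between 74 and 220. For control glands, the week 24 against week 8 count of 1624 (1103 higher, 521 lower) was 41 with only the arrays compared, 715 with the 3′ to 5′ covariate, 2504 without the 2 control arrays and 858 higher with 978 lower after quantile normalization, and the week 16 count of 6046 (3689 higher) was 620 with the 3′ to 5′ covariate and 2621 higher with 3616 lower after quantile normalization. For anti-CD40L glands, the week 24 count of 3074 (2148 higher) was 1412 with Amy1, 633 with the 3′ to 5′ covariate, 1110 without the 5 arrays and 1234 higher with 1647 lower after quantile normalization; the week 16 count of 4750 (3127 higher) was 2658, 3387 and 2476 under the first 3 of these and 1714 higher with 2683 lower under the last. Replicate numbers did not pair the arrays: over 35 pairs of same-numbered arrays in the groups compared, the correlation of their deviations from the group means ran from −0.633 to 0.401 with 6 above 0.1, and a replicate block left 2 calls at week 24 and changed no other count of members by more than 1.5 times. Values near the array median, as for Klrd1, Gzmk and Cst7, limit what signal over background can show.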
